A study of Mus musculus with 2 samples.

Results

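The genes described here are the 9 genes of reactive gliosis and of glial intermediate filaments Gfap, Vim, Nes, Serpina3n, Osmr, Cd44, S100a6, Lcn2 and Stat3. They were taken by symbol from the gene names of both count matrices, and all 9 were found, each under a single identifier, among 22587 gene symbols. The cells were YFP+ cells sorted from the hippocampus of mice aged 12 weeks, 4 weeks after tamoxifen (TAM), which was given at 8 weeks of age. TAM switches on a Nestin-driven CreERT2, so that Nestin-expressing cells and their progeny carry YFP from the Rosa26 locus. In the Opa1 cKO library both alleles of Opa1, a gene for a GTPase of the inner mitochondrial membrane, were floxed. The CT library carried CreERT2 and the YFP reporter and, according to the protocol, no floxed Opa1, although the strain label gives the same 3 alleles for both libraries. Live cells of 3 mice were pooled into 1 library for each genotype and profiled by 10x Genomics 3′ single-cell RNA sequencing. With 1 library per genotype there is no replicate and no test between genotypes. Differences given below are between these libraries, intervals are 95% intervals that cover counting error only, and mouse, sort or library effects cannot be told apart from genotype.

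When glia respond to injury or disease they enlarge their intermediate filament network and turn on a shared set of genes, a state called reactive gliosis. Gfap is the astrocyte filament protein and also marks the quiescent radial glia-like neural stem cells of the dentate gyrus, Vim is the filament protein of immature and reactive glia, and Nes is the filament protein of neural progenitors. Osmr is the oncostatin M receptor, which signals through gp130 and JAK kinases to the transcription factor Stat3, a known activator of Gfap. Serpina3n and Lcn2 are secreted proteins used as markers of reactive astrocytes. Cd44 is a hyaluronan receptor and S100a6 a small calcium-binding protein, and both mark immature or reactive glia. On the mm10 assembly, Gfap (ENSMUSG00000020932) lies at chr11:102887336-102900912 and Stat3 (ENSMUSG00000004040) at chr11:100885098-100939540. Vim (ENSMUSG00000026728) lies at chr2:13573927-13582826, Lcn2 (ENSMUSG00000026822) at chr2:32384633-32388252 and Cd44 (ENSMUSG00000005087) at chr2:102811141-102901665. Nes (ENSMUSG00000004891) lies at chr3:87971078-87980451 and S100a6 (ENSMUSG00000001025) at chr3:90612882-90624181. Serpina3n (ENSMUSG00000021091) lies at chr12:104406729-104414329 and Osmr (ENSMUSG00000022146) at chr15:6813577-6874969. These are whole gene spans, and the reads came from the 3′ ends of transcripts.

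The start regions of Gfap and Vim are shown because the values of these filament genes parted in the results that follow. They are the bases upstream of the RefSeq start on GRCm38.p6, written 5′ to 3′ on the gene's own strand, at chr11:102897194-102897450 (minus strand) for Gfap and chr2:13574061-13574310 (plus strand) for Vim. Capitals mark TTCNNNGAA, the spaced palindrome that STAT factors bind.
Gfap: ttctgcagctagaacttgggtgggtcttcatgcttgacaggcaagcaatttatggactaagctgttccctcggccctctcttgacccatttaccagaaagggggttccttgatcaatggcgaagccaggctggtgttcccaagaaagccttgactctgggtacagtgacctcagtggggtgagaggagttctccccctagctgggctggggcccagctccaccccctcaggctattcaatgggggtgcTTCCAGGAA
Vim: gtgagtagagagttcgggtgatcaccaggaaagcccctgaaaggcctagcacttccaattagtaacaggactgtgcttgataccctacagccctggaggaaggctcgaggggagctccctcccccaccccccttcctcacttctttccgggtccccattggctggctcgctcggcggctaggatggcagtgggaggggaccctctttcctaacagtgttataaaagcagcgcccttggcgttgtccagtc
All 9 genes matched an entry. In the 300-base windows of RefSeq, which run from 250 bases before to 50 after each start, TTCNNNGAA was found in 1 of the 9 genes. The match was in Gfap, TTCCAGGAA, and began 2 bases before the start, so the printed Gfap run extends 7 bases into the transcript. Of all 32851 such windows 8.30% held the motif. The AP-1 motif TGANTCA was found in 1 of the 9, in Osmr, with 7.81% of all windows, and TGATGNAA, the core of the site bound by ATF4 with C/EBP factors, in 0 of the 9, with 3.97% of all windows. Both strands were searched for each motif and the matches did not overlap. These matches describe letters in short windows and show nothing about binding.

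The libraries held 4634 CT and 6475 Opa1 cKO barcodes, with 10799936 and 18662032 UMIs. Filters on gene number, mitochondrial share and YFP (1 UMI or more) left 1790 cells of CT and 3764 of Opa1 cKO, with a median of 2555 and 3008 UMIs. In all, 36 barcodes occurred in both libraries, 9 of them among the kept cells, and none of 36 log2 ratios of the 9 genes moved out of its counting interval without them. Cells were clustered without the 9 genes and named from markers that do not include them. The NSC pool-like class, the quiescent stem cells and the astrocyte-like cells close to them, held 1379 CT and 2592 Opa1 cKO cells in a pair of clusters: cluster 0 (1375 CT, 794 Opa1 cKO) and cluster 1 (4 CT, 1798 Opa1 cKO), whose leading genes were stress genes such as Nupr1, Gdf15 and Ddit3. The other classes were activated NSC-like (10 cells in CT, 402 in Opa1 cKO), progenitor and neuron-like (139 and 169), ependymal-like (39 and 244), mural-like (94 and 167), endothelial-like (55 and 89, with haemoglobin genes among the leading genes) and oligodendrocyte-like (74 and 101). Opa1 itself was at 18.5 CPM (UMIs of the gene per 1000000 UMIs of the cells) in the CT pool and 7.98 CPM in that of Opa1 cKO. The 3′ reads need not fall on the floxed exons, so this is a limited check of the labels.

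In NSC pool-like cells the 9 genes did not move together. Gfap was 2.41-fold higher in the Opa1 cKO library and Osmr 1.69-fold higher, while Vim, Cd44, S100a6 and Stat3 had log2 ratios between -0.18 and 0.08. Serpina3n, with 21 CT and 29 Opa1 cKO UMIs, had a log2 ratio of -0.71 with an interval that included 0. Nes and Lcn2 were at or near the limit of detection. Of the 7 genes with at least 20 UMIs in this class, 1 (Gfap) had a log2 ratio of 1 or more and 0 had one of -1 or less. Over all 11316 genes with that many UMIs, the shares were 3.90% and 3.73%, and the median log2 ratio was 0.03. The median over the 7 genes was 0.05. Of the reactive markers in the set, only Gfap and Osmr were thus higher beyond counting error in this class as clustered, and the secreted markers were not.

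Gfap was at 455 CPM in CT (1721 UMIs; interval 434 to 477) and at 1096 CPM in Opa1 cKO (9347 UMIs; 1074 to 1119). The intervals were far apart, and the log2 ratio was 1.27 (1.19 to 1.34). Genes with at least 300 UMIs in this class had a median log2 ratio of 0.14, and relative to that median the Gfap ratio was 1.13. In cluster 0 alone, without the cluster that was nearly all Opa1 cKO, it was 0.28 and that of Osmr 0.12. When every cell was thinned to 1500 UMIs, 36.3% of CT cells (33.7 to 39.0; 1285 cells) and 58.3% of Opa1 cKO cells (56.3 to 60.3; 2394 cells) held a Gfap UMI, with 94 CT and 198 Opa1 cKO cells too shallow to thin. Before thinning the shares were 48.7% and 72.5%, at a median of 2493 and 2962 UMIs per cell. Oligodendrocyte-like cells, which should lack Gfap, had it in 8.11% (3.03 to 16.8) of CT and 14.9% (8.56 to 23.3) of Opa1 cKO cells at the same thinned depth, with medians of 3768 and 3914 UMIs before thinning. Both NSC pool-like shares stood well above these. Among microglia markers, P2ry12 was higher in the Opa1 cKO pool, at 24.0 CPM (205 UMIs) against 12.4 CPM (47 UMIs), and Cx3cr1, C1qa, C1qb, Csf1r and Tmem119 were each at or under 3.64 CPM in both libraries. Their part in the Gfap difference was not tested.

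The difference in Gfap lay both in the number of cells with a UMI and in the number of UMIs per cell. Of the thinned CT cells 1.40% held 5 or more Gfap UMIs (0.832 to 2.20), against 6.89% of the Opa1 cKO cells (5.91 to 7.98). Cells with 3 to 4 Gfap UMIs made up 4.75% of CT and 12.9% of Opa1 cKO cells, and cells with none 63.7% and 41.7%. The highest unthinned cell held 51 UMIs in CT and 75 in Opa1 cKO, and the tenth of cells with most Gfap held 52.1% and 47.2% of its UMIs. The difference was thus spread over many cells of the class.

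Vim, the filament partner of Gfap, was in CT at 81.2 CPM (72.4 to 90.8) and in Opa1 cKO at 71.9 CPM (66.3 to 77.8) in the same cells. The intervals overlapped, with a log2 ratio of -0.18 (-0.38 to 0.03), and 10.8% of CT and 8.86% of Opa1 cKO thinned cells held a UMI. This value depends on where the class ends: with the activated NSC-like cells, which are nearly all Opa1 cKO, counted in the pool, the Vim ratio was 0.28 and that of S100a6 0.32, while that of Gfap was 1.34. Nes was close to absent from the pool, although its regulatory sequence drives the CreERT2, with 3 UMIs over 1379 CT cells and 9 over 2592 Opa1 cKO cells. Its share of cells, 0.218% and 0.347%, was no higher than in oligodendrocyte-like cells (1.35% and 0 of 101, which allows up to 2.97%), so it was not detectable above background at this depth.

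**Figure D1:**
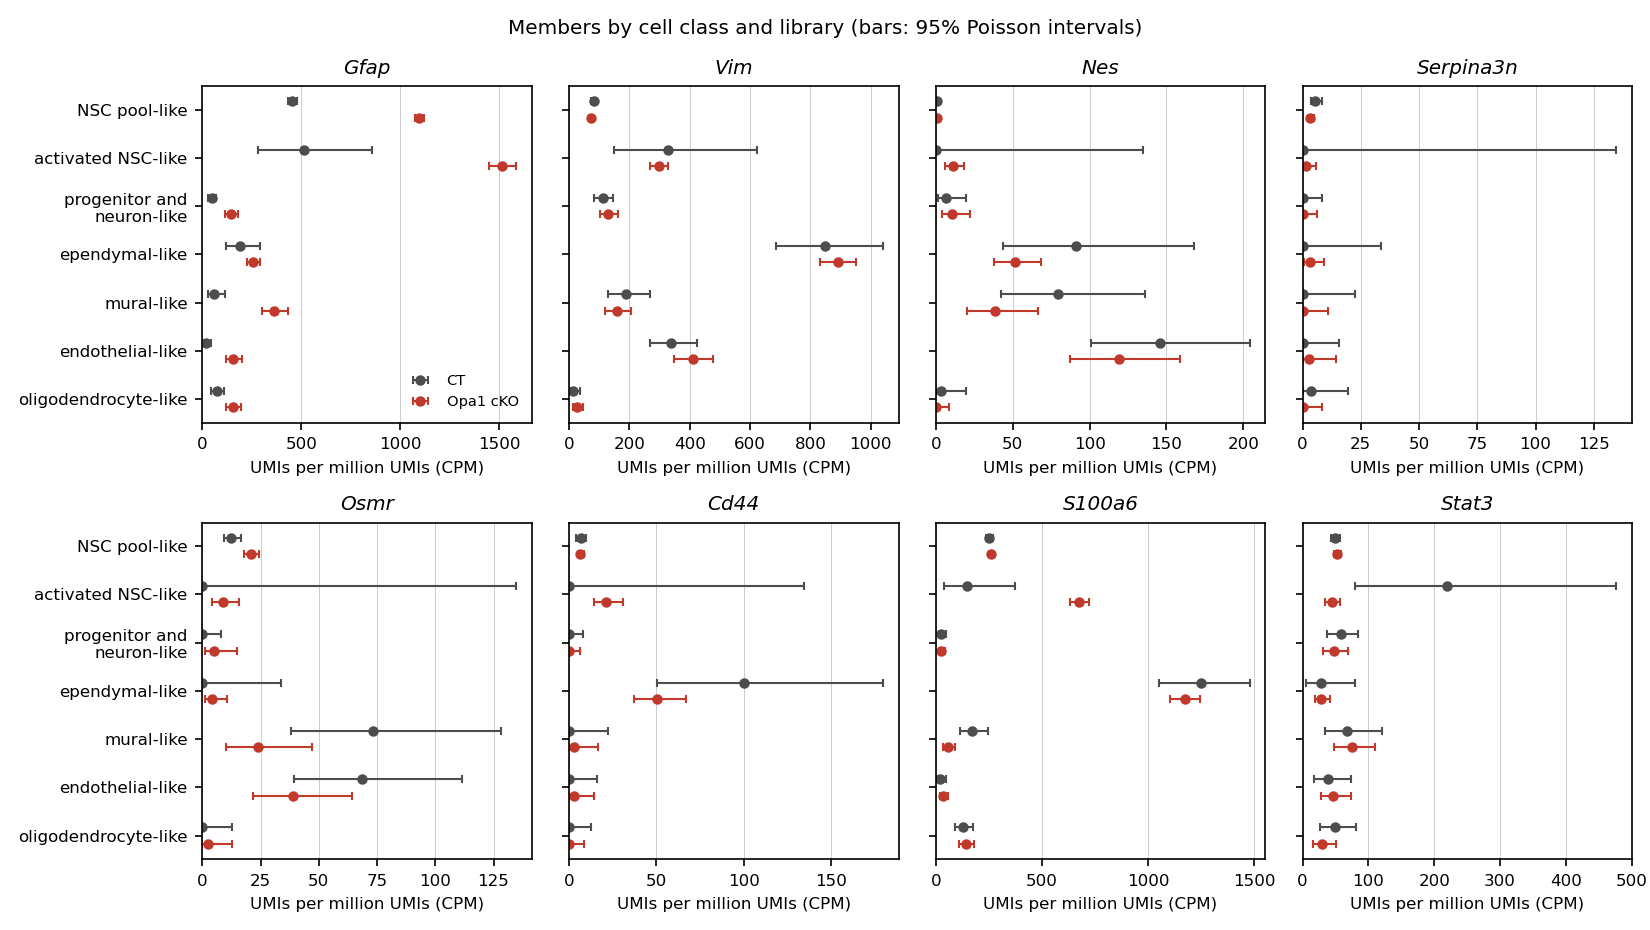
Level of 8 of the 9 genes (Lcn2, with 1 UMI in all, is left out) in each cell class, in CPM (horizontal axes start at 0 and differ between panels), for the CT (grey) and Opa1 cKO (red) library; points are pooled levels and bars 95% Poisson intervals. Gfap in NSC pool-like cells sits in CT at 455 CPM and in Opa1 cKO at 1096 CPM, while Vim, S100a6 and Cd44 peak in ependymal-like cells and Nes in endothelial-like cells.

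Osmr, the receptor subunit, was in CT at 12.4 CPM (47 UMIs; 9.14 to 16.5) and in Opa1 cKO at 21.0 CPM (179 UMIs; 18.0 to 24.3). The intervals did not overlap, and the log2 ratio was 0.76 (0.29 to 1.25). At 1500 UMIs per cell, 1.40% of CT (0.832 to 2.20) and 2.38% of Opa1 cKO cells (1.81 to 3.07) held it, and these intervals did overlap. Oligodendrocyte-like cells held it in 0 of 74 and 0 of 101 thinned cells, which allows up to 4.05% and 2.97%, so the shares could not be set apart from background. By level, oligodendrocyte-like cells of Opa1 cKO had 1 Osmr UMI, at 2.30 CPM (0.058 to 12.8), under the interval of the pool. Those of CT had 0 UMIs, which allows up to 10.4 CPM, within the interval of the CT pool. Stat3, the factor downstream, had 189 UMIs in CT (43.1 to 57.7 CPM) and 451 in Opa1 cKO (48.1 to 58.0 CPM). Its log2 ratio was 0.08 (-0.17 to 0.33) and became -0.06 relative to the median gene. Its thinned shares, 6.69% and 7.60%, lay between the 8.11% and 3.96% of oligodendrocyte-like cells and could not be set apart from them.

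The secreted markers of reactive astrocytes were scarce in both libraries. Serpina3n had 21 CT and 29 Opa1 cKO UMIs in the pool, at 5.56 CPM (3.44 to 8.49) and 3.40 CPM (2.28 to 4.88). The direction was opposite to that of Gfap, with a log2 ratio of -0.71, but its interval (-1.57 to 0.18) included 0. Lcn2 had 1 UMI in all kept cells, in a CT endothelial-like cell, and 0 in 1379 CT and 2592 Opa1 cKO NSC pool-like cells, which allows up to 0.218% and 0.116% of cells with a UMI. Over all barcodes before filtering, each library held 2 Lcn2 UMIs. Cd44 was at 6.61 CPM (4.28 to 9.76) and 6.57 CPM (4.96 to 8.53), with a log2 ratio of -0.01 (-0.71 to 0.73). S100a6 was at 252 CPM (236 to 268) and 260 CPM (250 to 271). Its log2 ratio was 0.05 (-0.06 to 0.16) and -0.09 relative to the median gene, so that no direction can be given for it. Its thinned shares were 27.9% and 29.7%, against 13.5% and 9.90% in oligodendrocyte-like cells.

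Across the classes each gene had its own order. Gfap was highest in NSC-type cells: in Opa1 cKO it was at 1515 CPM (1448 to 1584) in activated NSC-like, 1096 CPM in NSC pool-like, 363 CPM (302 to 434) in mural-like, 257 CPM (226 to 291) in ependymal-like, 155 CPM in endothelial-like, 144 CPM in progenitor and neuron-like and 154 CPM in oligodendrocyte-like cells. The last 3 did not differ beyond their intervals. In CT the order was 511 CPM in the 10 activated NSC-like cells (279 to 858), which overlaps the 455 CPM of the pool, then 192 CPM (119 to 293) in ependymal-like cells, and 17.2 to 72.9 CPM in the remaining classes. The activated NSC-like ratio, 1.57 (0.82 to 2.44), rests on 14 CT UMIs and turned to -0.09 when cells were clustered after log-normalization. Gfap was also higher in Opa1 cKO in 4 other classes. The log2 ratio was 1.62 (0.92 to 2.39) for progenitors and neurons, 1.08 (0.35 to 1.86) in oligodendrocyte-like, 2.57 (1.64 to 3.67) in mural-like and 3.18 (1.75 to 5.10) in endothelial-like cells. These rest on 4 to 21 CT UMIs a class, and in mural-like cells of Opa1 cKO the tenth of cells with most Gfap held 87.7% of its UMIs. The difference in ependymal-like cells was 0.42 (-0.22 to 1.14). How much of the Gfap in these classes was free RNA was not tested.

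Vim was highest in ependymal-like cells, the ciliated lining of the ventricles, in CT at 849 CPM (685 to 1040) and in Opa1 cKO at 890 CPM (831 to 952). It was next highest in endothelial-like cells, at 339 and 409 CPM, whose interval in CT (269 to 423) overlapped that of the 10 activated NSC-like cells (150 to 624; 329 CPM). In Opa1 cKO the activated NSC-like cells followed at 297 CPM (268 to 329), then mural-like cells at 158 CPM. The NSC pool-like cells were lower than all of these, and only oligodendrocyte-like cells lay below them, at 13.9 and 25.2 CPM. For none of the 7 classes did the interval of the Vim ratio exclude 0. S100a6 was likewise highest in ependymal-like cells, at 1251 CPM (1050 to 1479) and 1172 CPM (1105 to 1243). Activated NSC-like cells of Opa1 cKO followed at 675 CPM (630 to 722), above the 260 CPM of the pool in the same library. The tenth of these cells with most S100a6 held 57.0% of its UMIs. In mural-like cells S100a6 was lower in Opa1 cKO, at 59.6 against 171 CPM, but the 28 CT UMIs came from 6 cells, of which 1 held 14.

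Nes was highest in endothelial-like cells, at 146 CPM (101 to 204) in CT and 119 CPM (87.3 to 159) in Opa1 cKO. Ependymal-like cells had 91.3 and 51.6 CPM and mural-like cells 79.6 and 38.7 CPM, with intervals that overlapped between these classes and between the libraries. Activated NSC-like cells of Opa1 cKO had 14 Nes UMIs, at 11.1 CPM (6.05 to 18.6), above the 1.06 CPM (0.483 to 2.004) of the pool. Osmr was highest in mural-like (73.5 and 23.8 CPM) and endothelial-like cells (68.7 and 38.9 CPM), the cells of the vessel wall. In mural-like cells it was lower in Opa1 cKO, with a log2 ratio of -1.62 (-3.12 to -0.21; 12 and 8 UMIs), the opposite direction to the pool. In endothelial-like cells the interval of the ratio, -0.82 (-1.94 to 0.29; 16 and 15 UMIs), included 0. Cd44 was highest in ependymal-like cells (100 and 50.5 CPM, 11 and 48 UMIs), followed in Opa1 cKO by activated NSC-like cells (21.3 CPM, 27 UMIs). The pool held more of its UMIs than any other class, 25 and 56, at the lower levels of 6.61 and 6.57 CPM. Cd44 had 0 or 1 UMI in each library in the progenitor and neuron, mural, endothelial and oligodendrocyte-like classes. Stat3 showed no class of its own, with 27.4 to 74.4 CPM in all classes but the 10 CT activated NSC-like cells, where 6 UMIs gave 219 CPM (80.4 to 477).

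NSC pool-like cells were then split by the share of their UMIs that came from the 13 mRNAs of the mitochondrial genome, since loss of Opa1 acts on mitochondria. In CT, 1269 of 1379 cells (92.0%) were at 3% or more, called normal, 107 between 1% and 3% and 3 under 1%, called low. In Opa1 cKO, 769 of 2592 cells (29.7%) were normal, 241 in between and 1582 (61.0%) low. Of the low Opa1 cKO cells 1580 were in cluster 1 and of the normal ones 757 in cluster 0. In this split CPM was taken over the UMIs that are not mitochondrial, since the share itself enters the total.

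The higher Gfap of the Opa1 cKO pool lay mainly in cells of the low and middle groups. Gfap was at 497 CPM (473 to 522) in normal CT cells, 584 CPM (554 to 616) in normal Opa1 cKO cells, 943 CPM (873 to 1017) in the middle group and 1388 CPM (1356 to 1420) in low Opa1 cKO cells. Low over normal within the Opa1 cKO library, where all cells shared sort, chip and sequencing, the log2 ratio was 1.25 (1.17 to 1.33), or 1.05 relative to the median of genes with at least 300 UMIs. Among normal cells of the libraries it was 0.23 (0.13 to 0.34). At 1500 UMIs per cell, 36.8% of normal CT (34.0 to 39.6), 42.1% of normal Opa1 cKO (38.6 to 45.8) and 66.4% of low Opa1 cKO cells (63.9 to 68.9) held a Gfap UMI, and 1.44%, 0.678% and 10.0% held 5 or more. Depth was close in the Opa1 cKO groups, with a median of 3042 UMIs in normal and 2964 in low cells. Of the 7 genes with at least 20 UMIs in the low over normal comparison, 1 (Gfap) had a log2 ratio of 1 or more, against 4.87% of all genes, and 1 (Serpina3n) had one of -1 or less, against 2.63%. Among normal cells 0 of the 7 genes with at least 20 UMIs reached either limit, against 1.01% and 4.59% of all genes.

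**Figure D2:**
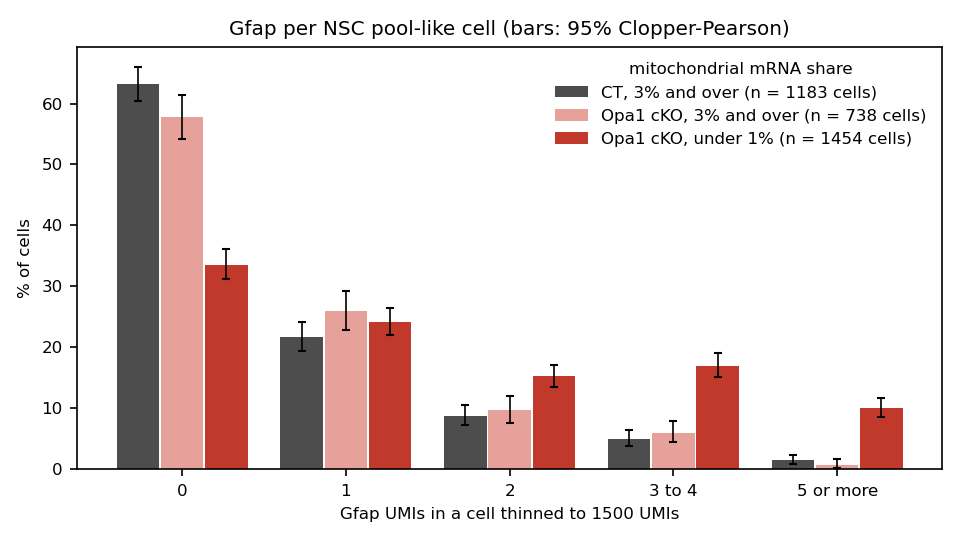
Percentage of NSC pool-like cells (vertical axis, from 0) by the number of Gfap UMIs found when each cell was thinned to 1500 UMIs (horizontal axis), for CT and Opa1 cKO cells with a mitochondrial mRNA share of 3% and over and Opa1 cKO cells under 1%; error bars are 95% Clopper-Pearson intervals over cells. Cells with no Gfap UMI make up 63.2%, 57.9% and 33.6% of the groups, and cells with 5 or more make up 1.44%, 0.678% and 10.0%.

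In finer ranges of mitochondrial share, chosen after the values were seen, Gfap in Opa1 cKO was at 1516 CPM under 0.25%, 1429 CPM from 0.25% to 0.5%, 1269 CPM from 0.5% to 1%, 1022 CPM from 1% to 2%, 798 CPM from 2% to 3% and 527 CPM from 3% to 5%, each lower than the one before, although the intervals of the first pair overlapped (1441 to 1595 and 1381 to 1478). Above 5% it was at 624 CPM (584 to 667), higher than at 3% to 5% (482 to 574). In CT the order was the other way: 284 CPM (218 to 363) at 2% to 3%, 371 CPM (338 to 405) at 3% to 5% and 577 CPM (544 to 611) above 5%. At 2% to 3% and at 3% to 5% the libraries were apart, and above 5% their intervals overlapped. Of the Opa1 cKO cells 199 lay within 0.8% to 1.2% and 108 within 2.5% to 3.5%, near the limits of the groups.

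**Figure D3:**
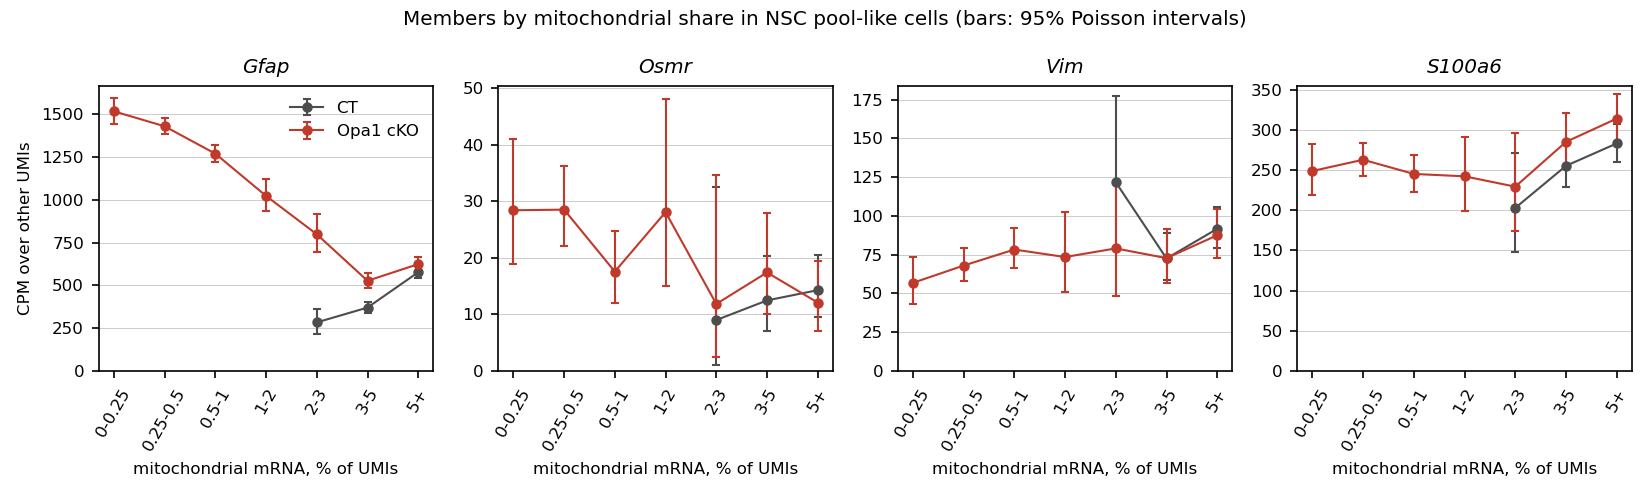
Level of Gfap, Osmr, Vim and S100a6 in NSC pool-like cells (vertical axes, CPM over UMIs that are not mitochondrial, from 0) by the percentage of a cell's UMIs that are mitochondrial mRNA (horizontal axis, unequal ranges with at least 50 cells), for CT (grey) and Opa1 cKO (red); bars are 95% Poisson intervals. Gfap in Opa1 cKO goes from 1516 CPM under 0.25% to 527 CPM at 3% to 5%, and the CT points go from 284 to 577 CPM in the opposite direction.

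Osmr went the way of Gfap with wider error. It was at 13.6 CPM (9.92 to 18.2) in normal CT, 14.3 CPM (9.89 to 19.96) in normal Opa1 cKO and 24.6 CPM (20.5 to 29.2) in low Opa1 cKO cells, with a low over normal log2 ratio of 0.78 (0.23 to 1.37). Serpina3n went the other way, with 16 UMIs (6.72 CPM) in 769 normal and 12 UMIs (2.29 CPM) in 1582 low cells, a log2 ratio of -1.55 (-2.77 to -0.38). S100a6 was slightly lower in low cells, at 254 against 302 CPM, with a log2 ratio of -0.25 (-0.38 to -0.12). Vim (-0.23; -0.48 to 0.03), Cd44 (-0.23; -1.12 to 0.71) and Stat3 (0.26; -0.06 to 0.58) had intervals that included 0. Stat3 is regulated largely by phosphorylation, which mRNA counts do not measure. Low Opa1 cKO cells thinned to 1500 UMIs were also grouped by their UMIs of 6 integrated stress response genes. With 0 to 2 such UMIs, Gfap was found in 72.3% (59.8 to 82.7) of 65 cells. With 3 to 5 it was in 68.8% (63.6 to 73.6) of 352 cells. With 6 to 9 it was in 68.3% (64.5 to 71.9) of 624 cells. With 10 or more it was in 60.8% (55.9 to 65.5) of 413 cells. Osmr was found in 1.54%, 1.42%, 3.04% and 4.12% of these groups, with intervals that overlapped. A link of either gene to these stress transcripts was not tested.

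The same split in other classes rested on fewer cells. In progenitor and neuron-like cells of Opa1 cKO, Gfap was at 177 CPM (130 to 234) in 80 low and 81.0 CPM (48.8 to 126) in 70 middle cells. These intervals did not overlap, but the values rest on 48 and 19 UMIs, and the 19 normal cells held 17. In this class the tenth of cells with most Gfap held 75% of its UMIs, so no trend with mitochondrial share can be given. Gfap in activated NSC-like cells of Opa1 cKO was at 1595 CPM in 114 low and 1598 CPM in 242 middle cells, with overlapping intervals, while S100a6 was at 1092 CPM (985 to 1207) and 477 CPM (429 to 529). Over all 402 activated NSC-like cells of Opa1 cKO, the tenth with most S100a6 held 57.0% of its UMIs, and the highest cell held 38. Counting intervals do not cover such a spread between cells, so a few cells can set the S100a6 difference. In ependymal-like cells of Opa1 cKO, Gfap was at 270 CPM in 173 low and 219 CPM in 54 middle cells, with overlapping intervals. In mural-like cells of Opa1 cKO, Gfap was at 521 CPM (404 to 660) in 68 middle and 201 CPM (121 to 313) in 51 normal cells. These intervals did not overlap, and the values rest on 68 and 19 UMIs. Over all mural-like cells of Opa1 cKO, the tenth with most Gfap held 87.7% of its UMIs, and the highest cell held 24. A few cells can thus set this difference, which counting intervals do not cover. The normal groups of the activated NSC-like, progenitor and neuron-like and ependymal-like cells held 46, 19 and 17 cells. The low group of the mural-like cells held 48, and these groups were given no CPM value.

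Barcodes without a YFP UMI, which the filter leaves out although they came through the same sort, were examined in a further clustering. It held all barcodes that passed the filters on gene number and mitochondrial share, 4186 of CT and 6121 of Opa1 cKO. Among the NSC pool-like cells of that clustering, the 1849 CT and 1557 Opa1 cKO cells without a YFP UMI had Gfap at 447 and 763 CPM, a log2 ratio of 0.77 (0.69 to 0.86). Those with a YFP UMI, 1356 and 2914 cells, had 455 and 1166 CPM and a ratio of 1.36 (1.28 to 1.43). The Vim ratio in this clustering was 0.33 without a YFP UMI (0.09 to 0.57) and 0.33 with one (0.14 to 0.52). That of S100a6 was -0.01 (-0.14 to 0.13) and 0.33 (0.22 to 0.44). Of the Opa1 cKO cells 36.2% without and 57.4% with a YFP UMI had a low mitochondrial share, against 0.216% and 0.221% in CT. In that clustering the activated cells fell within the pool.

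Related genes were taken as lists, each read against all genes of the NSC pool-like comparison. For each list, the shares of all genes at a log2 ratio of 1 or more and of -1 or less were 3.90% and 3.73%. In lists this short a count of 0 is near those shares and is no result about the list. Among 14 other intermediate filament genes and linkers, 5 had at least 20 UMIs and 0 reached the limit in either direction, with a median of -0.09. Of 7 other S100 genes 0 did, with a median of -0.21. Under the limit, each of the 7 S100 genes had an interval that excluded 0, with S100a16 and S100b higher and the others lower. In the filament list only those of Lmna (higher) and Lmnb2 (lower) did. These genes were named after their values were seen. Of the 7 ligands of gp130 2 had at least 20 UMIs, Lif and Ctf1 (named after their values were seen), and 0 reached the limit. Of the 4 receptor genes with at least 20 UMIs, 1 was lower by the limit, against 3.73% of all genes, and 0 were higher, with a median of -0.42. The lower one, Lifr, the leukemia inhibitory factor receptor that also pairs with gp130, was at 22.9 CPM in Opa1 cKO against 52.6 CPM, with a log2 ratio of -1.20 (-1.495 to -0.91). Il11ra1, the interleukin 11 receptor subunit, named after its value was seen, was higher, at 145 against 93.1 CPM, with a log2 ratio of 0.64 (0.47 to 0.82). The others, also named after their values were seen, were lower. Il6st, the gene for gp130 itself, was at 24.2 against 31.5 CPM, with a log2 ratio of -0.38 (-0.71 to -0.04). Cntfr was at 207 against 284 CPM, with -0.45 (-0.56 to -0.34). Of the JAK kinases and other STAT genes 0 of 7 reached the limit, with a median of -0.12.

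Of 7 STAT3 feedback and target genes with at least 20 UMIs, 1 was higher and 1 lower by the limit, against 3.90% and 3.73% of all genes. Socs3, the feedback inhibitor of gp130 signalling, had 6 UMIs in 6 CT cells and 64 in 58 Opa1 cKO cells, at 1.59 and 7.51 CPM, a log2 ratio of 2.24 (1.04 to 3.74). Socs3 passed the limit of 20 UMIs only through the Opa1 cKO library. Bcl6, a transcriptional repressor, was lower, at 7.51 against 18.8 CPM, with a log2 ratio of -1.32 (-1.83 to -0.82). Low over normal, both were at 0.45 on the log2 scale, under the limit.

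Of the pan-reactive astrocyte genes other than the 9, 3 of 4 with at least 20 UMIs were higher by the limit, against 3.90% of all genes. Cxcl10, an interferon-induced chemokine, had 1 UMI in CT and 120 UMIs in 39 Opa1 cKO cells, of which 1 cell held 15, with a log2 ratio of 5.73 (3.23 to 11.05). S1pr3, a sphingosine-1-phosphate receptor, had 3 and 29 UMIs, with a log2 interval of 0.41 to 4.46, and Hspb1, a small heat shock protein, 4 and 23, with 1.35 (-0.20 to 3.34). Of the A1 list, 2 of 9 genes were higher by the limit, again against 3.90% of all genes: H2-D1, a class I antigen-presenting molecule, at 110 against 45.5 CPM with a log2 ratio of 1.28 (1.04 to 1.52), and Fbln5, an extracellular matrix protein, at 14.2 against 2.91 CPM with 2.29 (1.40 to 3.33). Of the A2 list 1 of 3 was (3.90% of all genes), Tm4sf1, a membrane protein, with 10 and 48 UMIs and 1.09 (0.09 to 2.24). The other genes of these 3 lists with at least 20 UMIs stayed under the limit. Among them S100a10 of the A2 list, named after its value was seen, was lower in Opa1 cKO. It was at 120 against 183 CPM, with a log2 ratio of -0.61 (-0.75 to -0.47) and more UMIs (692 and 1025) than Tm4sf1. The intervals of the rest included 0. Low over normal mitochondrial share, 2 of 4 pan-reactive and 2 of 5 A1 genes with at least 20 UMIs were at 1 or more, against 4.87% of all genes, with Cxcl10 at 1.99, S1pr3 at 1.86, H2-D1 at 1.27 and Fbln5 at 1.06. Cxcl10, S1pr3, Hspb1, Fbln5 and Tm4sf1 had fewer than 20 UMIs in CT and passed that limit only through the Opa1 cKO library. Its pool held 8526034 UMIs against 3780354 in CT. Cxcl10, S1pr3 and Fbln5 likewise passed the low over normal comparison only through the low cells. The counts of genes higher by the limit are therefore no support for a change of these lists. The lists were also known from earlier results of the same data and are not independent support. Beside them, the 6 integrated stress response genes had a median log2 ratio of 1.71, with 5 of 6 higher by the limit (3.90% of all genes), and the 13 mitochondrial mRNAs a median of -0.91, with 6 of 13 lower by it (3.73% of all genes).

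**Figure D4:**
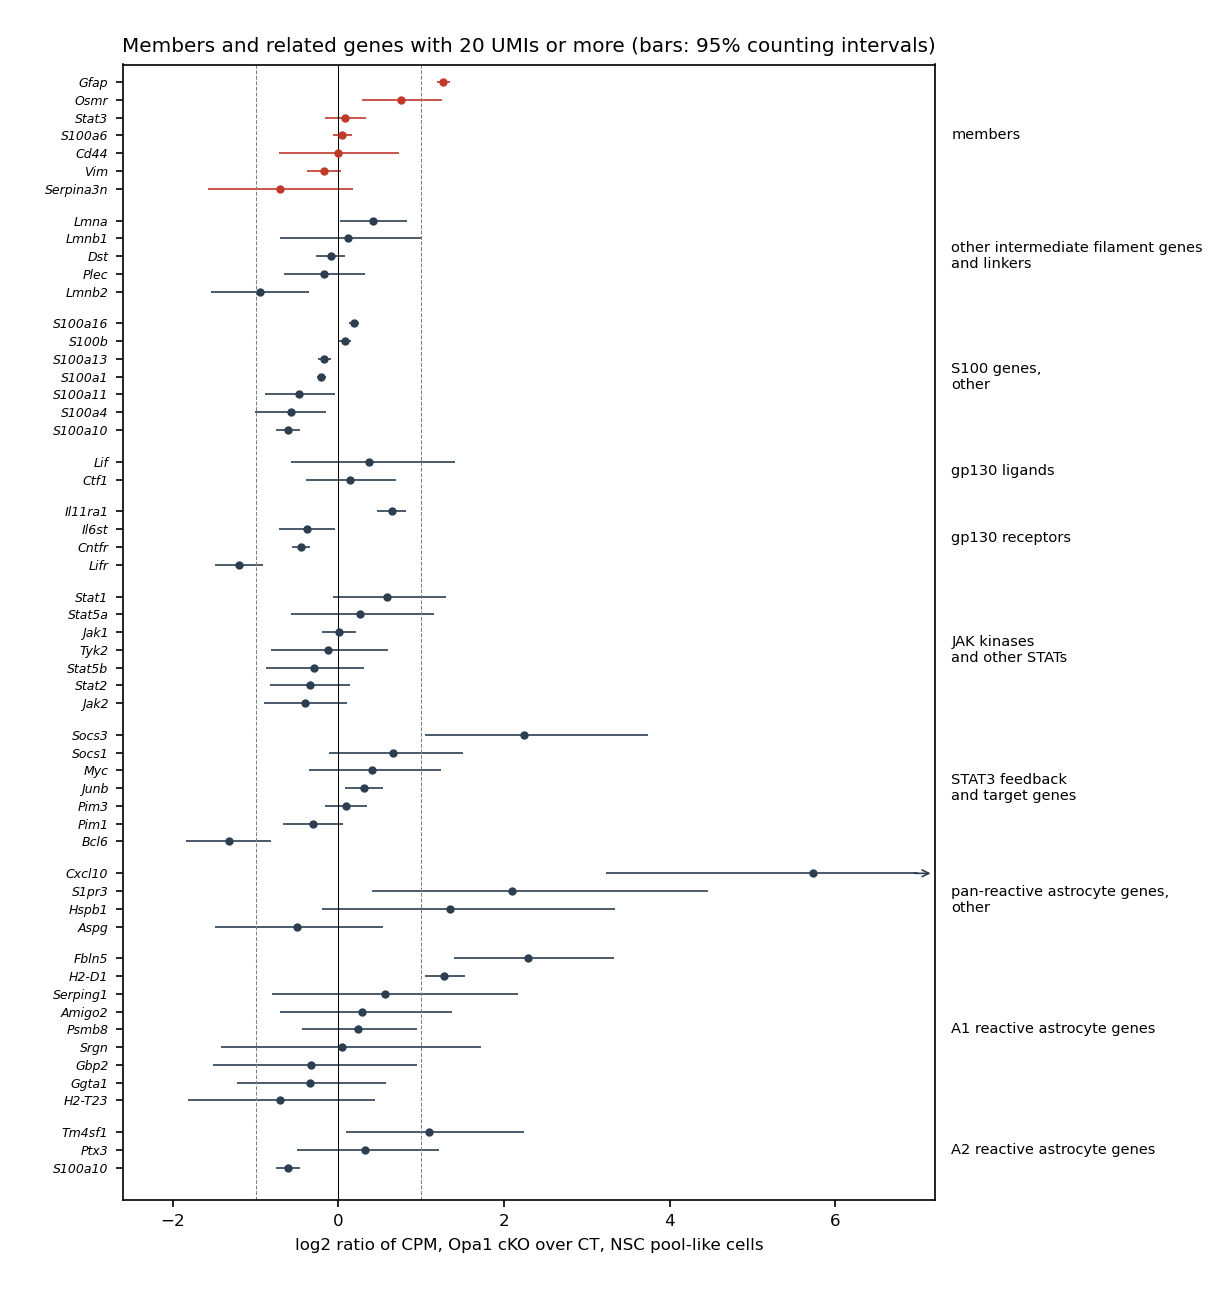
Log2 ratio of CPM, Opa1 cKO over CT, in NSC pool-like cells (horizontal axis) for the 7 genes of the set (red) and the related genes (dark) that had at least 20 UMIs, grouped by list, with bars for 95% counting intervals and dashed lines at -1 and 1; the arrow marks an interval cut off at the right edge. Gfap at 1.27 and Osmr at 0.76 stand to the right of 0, most filament, JAK and STAT genes lie around 0, Lifr is at -1.20 and Cxcl10 at 5.73.

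Over 12 profiles, the 6 classes with at least 30 cells in each library, the genes most like each member were named by Pearson r of log2(CPM + 10), among genes with at least 300 UMIs. The profiles share libraries and depth, and r is a description. For Gfap they were Slc7a11 (0.96), the cystine transporter that is also on the stress response list, Sar1b (0.95) and Tmem256 (0.94). For Vim they were Ssbp4 (0.96), Csrp2 (0.94) and Ctbp2 (0.93), for S100a6 Usp2 (0.95), Hhatl (0.95) and Dbi (0.94), and for Stat3 Gpsm1 (0.88), Cdc42se1 (0.85) and Gtf3c2 (0.85). The remaining 5 members had fewer than 300 UMIs. Among the members themselves r was 0.48 for Gfap with S100a6, 0.30 for Vim with S100a6, 0.04 for Gfap with Stat3, -0.05 for Gfap with Vim, -0.33 for Vim with Stat3 and -0.51 for S100a6 with Stat3. Within thinned Opa1 cKO NSC pool-like cells, Gfap was found in 65.1% (58.3 to 71.5) of the 212 cells with a Vim UMI and 57.6% (55.5 to 59.7) of those without. For Osmr it was 71.9% (58.5 to 83.0) of the 57 cells with it and 57.9% (55.9 to 59.9) of those without. The shares were 61.9% and 58.2% for Cd44, 60.7% and 57.3% for S100a6, and 63.2% and 57.9% for Stat3. In each pair the intervals overlapped, and the cells pool all mitochondrial groups. Exactly 3 of the 9 genes were found together in 2.49% of CT and 4.26% of Opa1 cKO thinned cells. Gfap counts among the 9, and its own share was 36.3% in CT and 58.3% in Opa1 cKO. Whether the genes occurred together more often than their single shares would give was not tested.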

How the data were processed

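Single-cell counts were analysed for YFP+ hippocampal cells in 1 CT and 1 Opa1 cKO library. The authors deposited raw UMI counts per gene and barcode, made with Cell Ranger. The submitters' processing notes give version 2.1.1 and the mm10 assembly, while the matrix headers give software version 3.1.0. Precision is limited by 10799936 and 18662032 UMIs in all and by counting error at each value.

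Cells with over 600 and under 7500 genes, under 20% mitochondrial UMIs and at least 1 YFP UMI were kept, as in the study's methods. The study reported more cells for each library than passed here, with or without the YFP step, so its set of cells was not reproduced. They were normalized by SCTransform (sctransform 0.4.2) and clustered in Seurat 5.3.0 under R 4.3.3, with 8 principal components, resolution 0.2 and the 9 genes left out. Clusters were named from marker lists. A class could be given when at least 3 of its markers, and at least 1 in 3 of them, had a log2 fold over 1 against the other clusters. Among such classes, the one with most markers among the 50 leading genes of the cluster was taken. The NSC pool-like cluster 1, led by stress genes, was named in a further step against clusters of other names. No doublet caller was run, and a version without the 5% deepest cells was computed. UMIs were summed by library and class in Python 3.11.15 and scaled to CPM, with exact Poisson intervals for levels, intervals from the binomial split of the UMIs for ratios and Clopper-Pearson intervals for shares, all at 95%. Cells are not replicates, so no p-value was computed. Shares were compared after thinning each cell to 1500 UMIs. Mitochondrial groups under 50 cells were given no value. A count of 0 allows up to 3 counts.

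The named genes were the 9 members, list genes with at least 20 UMIs and a log2 ratio of at least 1 in size, and the 3 genes most like each member. The members and lists were chosen with earlier results of these data known, and the naming steps and finer mitochondrial ranges after clusters and values were seen. The scripts were tested on simulated data. A microglia marker result is not reported here.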

Additional observations from a re-analysis of the deposited data

How the results depend on the processing

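The Gfap ratio of NSC pool-like cells, reported as 1.27, was 1.12 without the 5% deepest cells, 1.44 after log-normalization, 1.39 with mitochondrial and stress response genes left out of clustering, 1.13 centred on the median gene, 1.14 with every cell weighted equally and 1.08 thinned to 1500 UMIs. In cluster 0 alone, a choice made after seeing the data, Gfap was at 0.28, Osmr at 0.12 and S100a6 at 0.18. The Vim ratio, reported as -0.18, was 0.40 without the YFP filter, 0.084 with mitochondrial and stress response genes left out and 0.28 with the activated NSC-like cells added after seeing the data. The S100a6 ratio, reported as 0.05, was 0.25, 0.17 and 0.32 under the same choices and -0.091 centred on the median gene. Without the YFP filter, or without those genes, the activated cells were not separated from the pool. Low over normal mitochondrial share, Gfap was at 1.15 with the normal group at 5% and over and, by choices made after seeing the data, at 1.14 without the 5% deepest cells and 1.05 centred on the median gene, where S100a6 was at -0.44. Gfap in activated NSC-like cells, where the reported interval lay above 0, was at -0.094 after log-normalization, also chosen after seeing the data. The Vim and S100a6 ratios that changed sign had reported intervals that included 0. With at least 100 UMIs per gene, the median of the A2 list went from 0.32 to -0.61, with 1 gene left, and that of the STAT3 feedback and target list from 0.31 to -0.11, with 4 left. Without the barcodes found in both libraries no ratio left its counting interval. The cause of these shifts was not tested. No paired analysis was possible because each genotype had 1 library and the results come from no test. Depth limits Nes, Serpina3n, Cd44 and Lcn2 most, which had at most 56 UMIs per library in NSC pool-like cells.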
